A study of Mus musculus with 12 samples.

Results

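The 10 genes of steroid hormone synthesis described here were measured in mouse ovary in 12 samples. They are Star, Stard3 and Tspo, whose products bind or move cholesterol, and Cyp11a1, Fdx1, Fdxr, Hsd3b1, Hsd3b6, Cyp17a1 and Por, which encode enzymes and their electron donors. The genes were chosen by name, but with earlier results of these data known. All 12 of their probes were used, and the 10 genes belong to the 18559 genes and transcripts tested.

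The samples are ovaries of female C57BL/6J mice aged 2 months, an inbred laboratory strain, with 4 females in each of 3 diet groups. Control mice (C1 to C4) ate the normal diet, early-life mice (E1 to E4) were short of dietary vitamin D in early life alone, and peripubertal mice (P1 to P4) around puberty alone. The series describes the 4 samples of a group as biological replicates, and all were ovaries minced after removal. In such tissue fewer cells of a type and less RNA per cell cannot be told apart. RNA was labelled with Cy3 (odd sample numbers) or Cy5 (even numbers) and hybridised to Agilent arrays, each of which held 2 samples of 1 group. The stage of the oestrous cycle at which the ovaries were taken is not given in the sources used here.

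Control and early-life arrays shared 1 slide, while a separate slide carried all peripubertal arrays. Effects of that slide and of the peripubertal diet therefore cannot be told apart. The names of the control and early-life arrays also conflict between the deposited files. In the deposited value table, 8 columns carry control or early-life names, and every one matched a scanner channel of the other group, with correlations across features of 0.9998. Groups are named here after the scanner files. If the value table has the names right, every early-life difference from control given here has the opposite sign, and what is called control in the peripubertal comparison is the early-life group. The median spot signal was 147 to 331 intensity units over the 12 samples, 6.85 to 9.49 times the local background. Precision is limited by how few arrays there are.

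Steroid synthesis starts from cholesterol. StAR, the product of Star, moves it to the inner mitochondrial membrane, where the side-chain cleavage enzyme CYP11A1 makes pregnenolone with electrons passed from NADPH by ferredoxin reductase (Fdxr) and ferredoxin (Fdx1). The 3-beta-hydroxysteroid dehydrogenases, Hsd3b1 and Hsd3b6 among them, turn pregnenolone into progesterone, and CYP17A1, which takes its electrons from the reductase POR, leads on to androgens. In the ovary, theca cells make androgens and the corpus luteum makes progesterone, and Star is known to be turned on by luteinising hormone and to be high in luteal tissue.

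What each array spot measures is set by a probe of 60 bases. Probes of 6 of the members are shown as they stand in the deposited files, since they state which stretch of each transcript was read, 5′ to 3′, with positions in mouse build mm9.
Star, chr8:26920280-26920339, plus strand: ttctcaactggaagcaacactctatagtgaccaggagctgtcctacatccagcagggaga
Cyp11a1, chr9:57874074-57874544, plus strand: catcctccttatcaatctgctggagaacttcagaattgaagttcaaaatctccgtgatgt
Fdx1, chr9:51756743-51756802, minus strand: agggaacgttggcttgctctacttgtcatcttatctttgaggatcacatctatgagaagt
Hsd3b6, chr3:98610436-98610495, minus strand: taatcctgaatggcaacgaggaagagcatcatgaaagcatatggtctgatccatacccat
Cyp17a1, chr19:46742594-46743207, minus strand: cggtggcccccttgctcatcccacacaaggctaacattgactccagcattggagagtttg
Tspo, chr15:83402651-83402710, plus strand: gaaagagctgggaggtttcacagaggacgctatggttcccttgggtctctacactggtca
The Cyp11a1 probe covers 471 genomic bases and the Cyp17a1 probe 614, more than their 60 bases, so each crosses at least 1 exon junction. The Star probe shown is the dimmer of 2, and the brighter, on which the Star difference and correlations rest, lies at chr8:26925460-26925519. The Fdx1 probe shown is the brighter of 2, and the dimmer lies at chr9:51751616-51751675. The other probes lie at chr3:98656127-98656186 (Hsd3b1), chr11:115129567-115129626 (Fdxr), chr5:136211122-136211181 (Por) and chr11:98242252-98242311 (Stard3). No gene annotation of build mm9 was used, so exon and UTR are not given. Hsd3b1 and Hsd3b6 are close relatives, and binding of their probes to each other's transcripts was not tested.

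All 12 probes were well above background in all 12 samples, and none was saturated. Signals were 58.8 to 7935 times the local background, with the lowest ratio at the dimmer Star probe. Values below are normalised log2 intensities, on which a step of 1 is a doubling, and levels of different probes are not set against each other. Group values are means ± SD, and differences are those of the limma model with standard errors (SE). A call means an adjusted p under 0.05 over all genes tested.

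No member was called in any of the 3 comparisons. The main feature of the values is a wide spread between ovaries of the same group in Star and Cyp17a1. Early-life values of Fdxr, Fdx1, Tspo and Star were lower than control, but their adjusted p stayed over 0.05. Star and Tspo overlapped with control, and Fdx1 rested on 2 early-life values. In that comparison 13.9% of all genes had an unadjusted p under 0.05. The plot of levels by sample shows every value of the 10 genes.

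**Figure D1:**
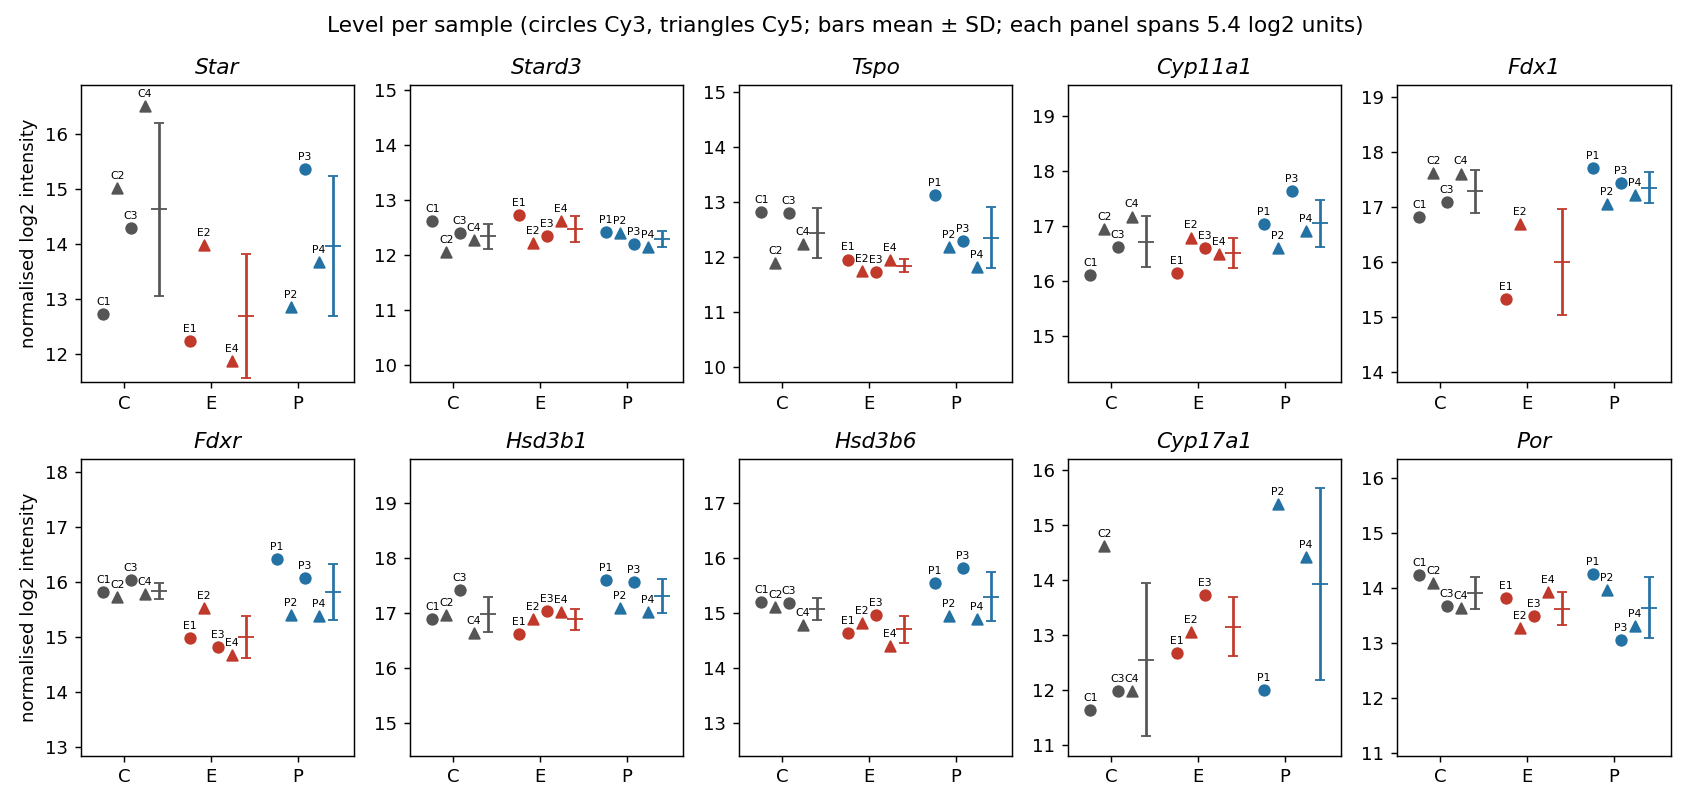
Normalised log2 intensity (vertical axis, each panel spanning the same number of log2 units) of the 10 genes in control (C), early-life (E) and peripubertal (P) ovaries; circles are Cy3, triangles Cy5, and bars the mean ± SD of the values shown. Star runs from 11.88 in E4 to 16.51 in C4, while Stard3 stays between 12.05 and 12.72.

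Star had the widest range of the members. Its brighter probe read 12.73, 15.02, 14.29 and 16.51 in C1 to C4, 12.23, 13.99 and 11.88 in E1, E2 and E4, and 12.86, 15.37 and 13.67 in P2, P3 and P4. The scanner software set its spots in E3 and P1 aside as outliers, so those samples have no value. Control ovaries alone thus spanned 3.78 log2 units, a 13.8-fold range, and both the early-life and the peripubertal values overlapped with them. The mean was 14.64 ± 1.57 (SD, n = 4) for control ovaries. It was 12.70 ± 1.13 (SD, n = 3) for early-life ovaries and 13.97 ± 1.28 (SD, n = 3) for peripubertal ones. The early-life value was lower than control by a modelled -2.16 ± 1.12 (SE), 4.46-fold, which did not pass (limma, adjusted p = 0.420), and 1 of 12 pairs of an early-life with a control ovary had the early-life value higher.

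The dimmer Star probe had values in all 12 samples and showed the same order of group means. It read 11.56, 13.19, 12.56 and 13.95 in C1 to C4, 10.76, 12.54, 11.22 and 10.33 in E1 to E4, and 12.58, 11.53, 13.31 and 11.99 in P1 to P4. E2 lay within the control range, and the other early-life ovaries under it. The early-life difference from control at this probe was -1.60 ± 0.77 (limma over all probes, adjusted p = 0.399). Over the 10 samples with both values the 2 probes had r = 0.98, across samples that share arrays and dyes.

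The other cholesterol-handling genes varied less. Tspo, which encodes an outer mitochondrial membrane protein that binds cholesterol, read 12.82, 11.89, 12.80 and 12.24 in C1 to C4, 11.96, 11.74, 11.74 and 11.96 in E1 to E4, and 13.13, 12.18, 12.29 and 11.83 in P1 to P4. The early-life ovaries lay close together, with an SD of 0.13 against 0.45 in control. E2 and E3 lay under the lowest control, C2, and E1 and E4 just above it. The difference was -0.59 ± 0.26 (limma, unadjusted p = 0.0446, adjusted p = 0.349). Stard3, which encodes a late endosomal cholesterol-binding protein related to StAR, had group means of 12.33 ± 0.23, 12.47 ± 0.23 and 12.28 ± 0.14 (SD, n = 4 each) in control, early-life and peripubertal ovaries. Its full range of 0.66 log2 units was the narrowest of the 12 probes.

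Cyp11a1, the side-chain cleavage enzyme, read 16.10, 16.94, 16.63 and 17.17 in C1 to C4, 16.14, 16.79, 16.61 and 16.49 in E1 to E4, and 17.04, 16.61, 17.63 and 16.91 in P1 to P4. C1 and E1 were the lowest ovaries and P3 the highest, and the groups overlapped. The difference from control was -0.20 ± 0.33 in early-life and 0.34 ± 0.33 in peripubertal ovaries (limma, adjusted p = 0.791 and 0.751).

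Its electron donors gave the smallest unadjusted p values against control. Fdxr, the ferredoxin reductase, read 15.81, 15.72, 16.04 and 15.78 in C1 to C4, against 14.99, 15.54, 14.82 and 14.67 in E1 to E4. Every early-life ovary lay under every control ovary. The difference was -0.84 ± 0.29, or 1.79-fold lower, with unadjusted p = 0.0158 and adjusted p = 0.278 (limma). Peripubertal ovaries read 16.42, 15.40, 16.07 and 15.39 and spanned the control range on both sides, with a difference from control of -0.021 ± 0.29.

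Fdx1, the ferredoxin, read 16.83, 17.62, 17.10 and 17.62 in C1 to C4 at its brighter probe, 15.33 and 16.69 in E1 and E2, and 17.72, 17.06, 17.44 and 17.23 in P1 to P4. E3 and E4 have no value there, having been set aside as outlier spots. Both measured early-life values lay under all control and all peripubertal values. The difference from control was -1.28 ± 0.47 (limma, unadjusted p = 0.0265, adjusted p = 0.312). It was -0.65 without E1 and -1.91 without E2, each then resting on a single early-life value. With outlier spots kept, all 12 samples entered and it was -1.14 ± 0.36 (adjusted p = 0.255). The dimmer Fdx1 probe, which lacks E1 and E2 instead, read 16.06 and 16.21 in E3 and E4 and 15.53 to 17.28 in control. There the early-life values lay within the control range and the difference was -0.44 ± 0.40 (limma over all probes, adjusted p = 0.630). The 2 Fdx1 probes thus differ in size by more than 1.5 times and share no early-life sample.

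The 3-beta-hydroxysteroid dehydrogenases overlapped between the groups. Hsd3b1 read 16.89, 16.95, 17.40 and 16.62 in C1 to C4, 16.60, 16.87, 17.03 and 17.00 in E1 to E4, and 17.59, 17.08, 17.55 and 17.01 in P1 to P4. Its differences from control were -0.088 ± 0.22 in early-life and 0.34 ± 0.22 in peripubertal ovaries (limma, adjusted p = 0.865 and 0.584). Hsd3b6 read 15.21, 15.11, 15.19 and 14.78 in C1 to C4, 14.64, 14.82, 14.96 and 14.40 in E1 to E4, and 15.54, 14.95, 15.82 and 14.90 in P1 to P4. The peripubertal Cy3 samples, P1 and P3, were the highest in both genes, and the groups overlapped. Of the family's other probes, Hsd3b7, an enzyme of bile acid synthesis, was well above background in 12 samples, while Hsd3b2 was in 3 and Hsd3b3 in 2. Those 2 were E1 and E2, which share an array.

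Cyp17a1, the enzyme of androgen synthesis, split ovaries of the same diet. It read 11.63, 14.61, 11.97 and 11.97 in C1 to C4, 12.68, 13.05 and 13.73 in E1, E2 and E3, and 11.998, 15.37 and 14.41 in P1, P2 and P4. Spots of E4 and P3 were set aside as outliers. C2 stood apart from the other controls, and P2 and P4 from P1. These 3 high ovaries all carried Cy5, whose effect the model includes as a term, and C4, also in Cy5, was low. Group means were 12.55 ± 1.39 (SD, n = 4), 13.15 ± 0.53 (SD, n = 3) and 13.93 ± 1.74 (SD, n = 3) in control, early-life and peripubertal ovaries. The differences of 0.95 ± 0.90 and 1.13 ± 0.90 from control were close to their standard errors (limma, adjusted p = 0.632 and 0.692). Leaving out 1 ovary moved the early-life difference from 0.32 (without E3) to 1.69 (without E2) and the peripubertal one from 0.53 (without C4) to 1.88 (without P1). Por, the reductase that serves CYP17A1 and other microsomal P450 enzymes, differed by -0.29 ± 0.30 and -0.27 ± 0.30 from control in early-life and peripubertal ovaries, and its 12 values ran from 13.05 to 14.24.

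The comparison of early-life with control ovaries asks what differs in adulthood after an early deficiency. Of the 10 genes 8 had a lower and 2 a higher early-life value, with a median difference of -0.33 beside -0.024 over all genes tested. The members with a positive difference were Cyp17a1 and Stard3. None was called, as in the whole set, of which 0 of 18559 were called (0%). Leaving out 1 ovary gave 0 to 108 genes, the most without E2. An unadjusted p under 0.05 was found for 3 members, Fdxr, Fdx1 and Tspo, beside 13.9% of all genes, and groups did not overlap in 2, Fdxr and Fdx1, beside 13.6% of all genes. The median SE of the members was 0.29 against 0.15 over all genes, so the same difference gives a weaker test here than in a typical gene. The values of the comparison with each member's SE are drawn in the plot of differences.

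**Figure D2:**
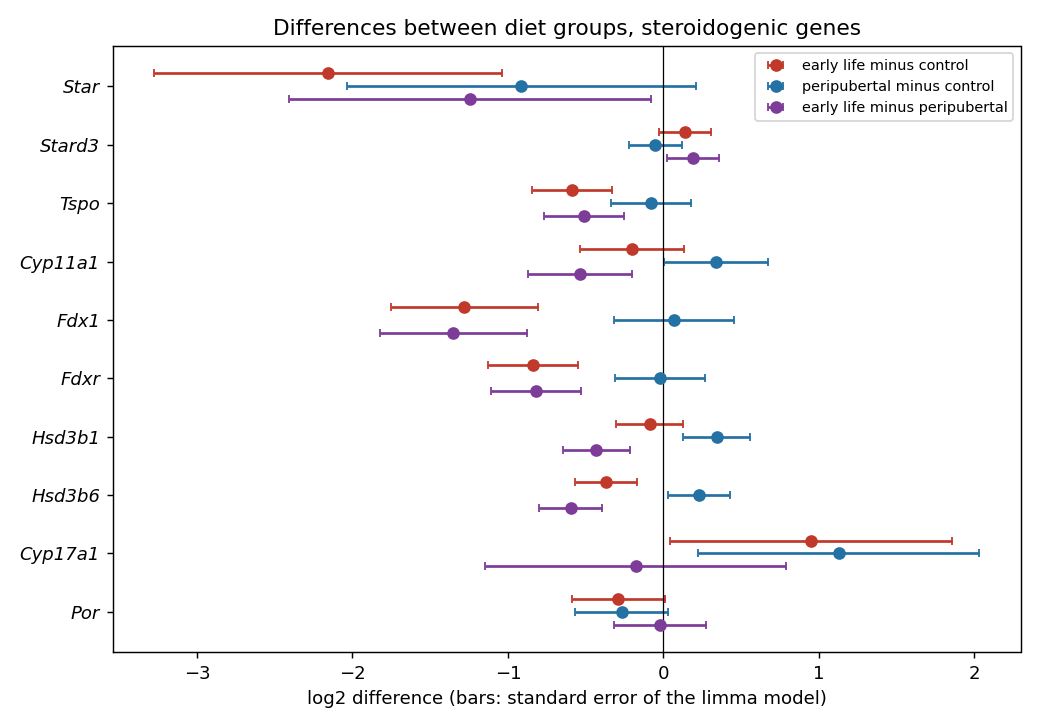
Modelled log2 difference (horizontal axis) with its standard error for each of the 10 genes in the 3 comparisons between diet groups. Star and Cyp17a1 carry the longest bars, with standard errors of 0.90 to 1.16, and the early-life differences of Fdx1 and Fdxr from both other groups lie between -1.35 and -0.82.

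The comparison of peripubertal with control ovaries asks the same for a deficiency around puberty. It called 50 of 18559 genes (0.269%), and none of the 10. Leaving out 1 ovary gave 0 genes (without E3) to 29. No member had an unadjusted p under 0.05, where 11.4% of all genes did, and in none did the groups stand apart, where 11.3% of all genes did. Differences were negative in 5 genes and positive in 5, with a median of 0.024 beside 0.0078 over all genes. They ran from -0.91 ± 1.12 in Star to 1.13 ± 0.90 in Cyp17a1, and the smallest adjusted p was 0.584, in Hsd3b1. The Star difference was -2.25 without P3 and -0.12 without P2.

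The 2 deficient groups shared no control sample in their direct comparison. Early-life minus peripubertal values were negative in 9 of the 10 genes, Stard3 alone being positive, with a median of -0.52 beside -0.033 over all genes. The comparison called 500 genes (2.69%) and none of the 10. Leaving out 1 ovary gave 2 genes (without E1) to 1576 (without E2). Hsd3b6 differed by -0.60 ± 0.20 (limma, unadjusted p = 0.0136, adjusted p = 0.122), Fdxr by -0.82 ± 0.29 (unadjusted p = 0.0179, adjusted p = 0.137) and Fdx1 by -1.35 ± 0.47 (unadjusted p = 0.0210, adjusted p = 0.146). These 3 had an unadjusted p under 0.05, as did 24.0% of all genes, and the groups stood apart in 1 of the 10, Fdx1, and in 20.7% of all genes. Without E2, the early-life ovary with the highest Star, Fdx1 and Fdxr, all 3 were called, with adjusted p of 0.0399 for Hsd3b6, 0.0270 for Fdxr and 0.0428 for Fdx1. Fdx1 then rested on a single early-life value, that of E1. They were also called when the array was not treated as a block (adjusted p = 0.0369, 0.0492 and 0.0470, among 2099 genes).

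Correlations among ovaries were high in some pairs of members. Star and Cyp11a1 had r = 0.81 and rho = 0.89 over the 10 ovaries with both values (permutation p = 0.00468 and 0.00106; adjusted over the 45 pairs of members, 0.0522 and 0.0477). Without C4 and E4, the ovaries farthest from the median of Star, r was 0.87, it was 0.94 with group means removed, and 0.88 over the 7 ovaries of the control and early-life slide. C4 and P3 were high in both genes and C1 and E1 low in both. Hsd3b6 and Fdxr had r = 0.80 and rho = 0.78 over 12 ovaries (permutation p = 0.00173 and 0.00400; adjusted, 0.0522 and 0.0676), and r = 0.74 without P1 and P3. Stard3 ran the other way, with r = -0.75 and rho = -0.70 against Cyp11a1 (permutation p = 0.00510 and 0.0136; adjusted, 0.0522 and 0.102), and r = -0.75 without C1 and P3. Hsd3b1 and Hsd3b6 had r = 0.77 over 12 ovaries (permutation p = 0.00389, adjusted 0.0522). For that pair r was 0.45 without P1 and P3 and 0.058 over the 6 Cy5 ovaries. Fdxr and Tspo had r = 0.75 over 12 ovaries (permutation p = 0.00580, adjusted 0.0522). There r was 0.76 without E3 and E4 and 0.15 over the 6 Cy5 ovaries. Cyp17a1 did not follow Star, with r = -0.14 over 8 ovaries. Of the 45 pairs 0 passed by Pearson's r and 1 by rho after adjustment, and all share arrays, dyes and normalisation. The permutations shuffled values over all ovaries without regard to diet group, dye or array. Their p values may therefore be too small, that of the 1 pair that passed included.

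**Figure D3:**
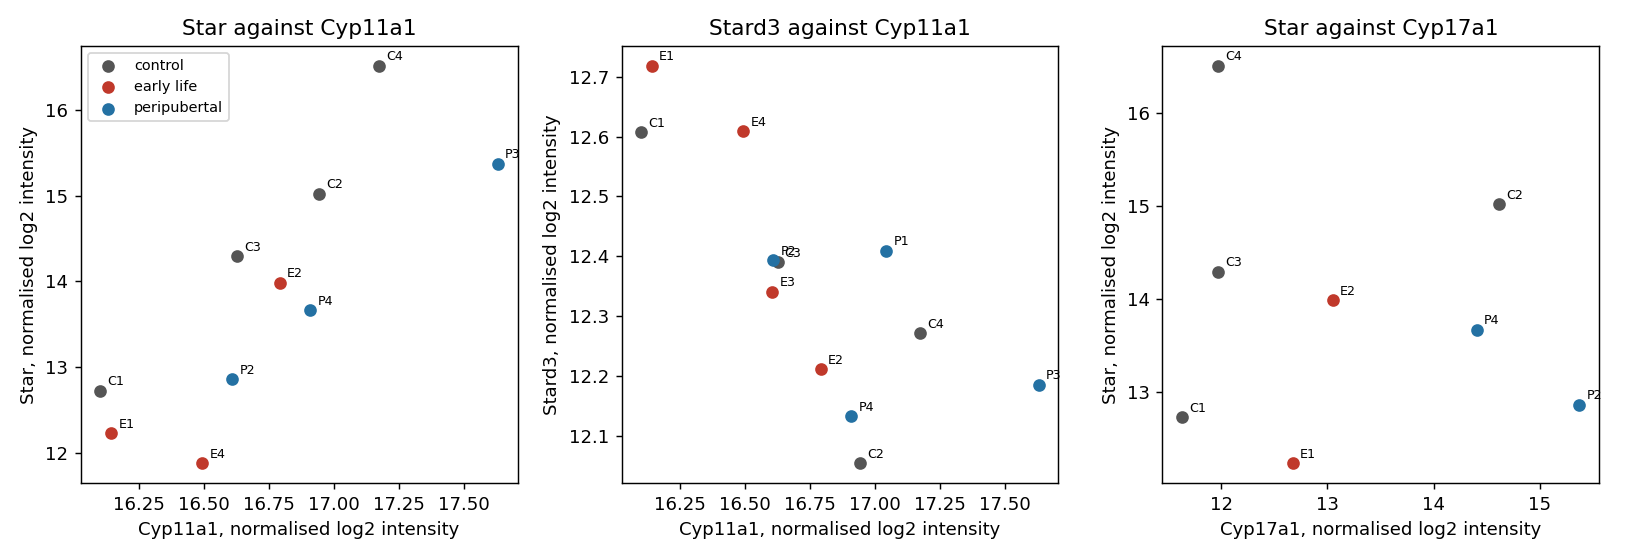
Normalised log2 intensities of Star against Cyp11a1, Stard3 against Cyp11a1 and Star against Cyp17a1, 1 point per ovary with both values, coloured by diet group. In the left panel C1 and E1 lie low and C4 and P3 high (r = 0.81), and in the right panel C2, P2 and P4 lie to the right at Cyp17a1 values of 14.41 to 15.37.

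The genes whose values were most like a member's over the samples, among all genes with a RefSeq symbol and no missing value, are given as a description. For Star, over 10 ovaries, they were Cst8 (r = 0.98), Matk (r = 0.97) and Sc5d (r = 0.97), a sterol desaturase of cholesterol synthesis. For Cyp11a1, over 12, they were Tgfa (r = 0.93), Prlr (r = 0.93), the prolactin receptor, and Nectin2 (r = 0.92). Fdx1 was closest to Dffa, Clpsl2 and Edem3 (r = 0.96 to 0.97), and Fdxr to Me1, the cytosolic malic enzyme, Smyd1 and Pfkp (r = 0.96 to 0.97). The genes closest to Hsd3b1 were Ncoa7, 6430573P05Rik and E430018J23Rik (r = 0.85 to 0.87), and those closest to Hsd3b6 were Atp6v1b2, Gmeb1 and Eng (r = 0.93 to 0.95). Genes close to Cyp17a1 included Fam76b (r = 0.93) and 2700081O15Rik (r = 0.92), and Por was closest to Ttc12, Lynx1 and Kcnmb4 (r = 0.90 to 0.92). Tspo was closest to Pip5k1a, Map3k14 and Dok1 (r = 0.95 to 0.96) and Stard3 to Arl4a, Cd82 and Aqp11 (r = 0.93 to 0.94).

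Regulators and other enzymes of the pathway were read from a list of 43 genes, of which 35 passed the filter on dim probes. None of the 35 was called in any comparison. Against control, early-life values were lower in 21 and higher in 14, with a median difference of -0.12 beside -0.024 over all genes. Unadjusted p was under 0.05 in 6 of the 35, beside 13.9% of all genes, and in the examples that follow groups without overlap are to be read beside 13.6% of all genes. Gata4, a transcription factor of granulosa and theca cells, read 12.65 to 13.30 in early-life and 13.60 to 13.87 in control ovaries, a difference of -0.69 ± 0.17 (limma, adjusted p = 0.201). Every early-life ovary lay under every control. Prkaca, a catalytic subunit of protein kinase A, differed by -0.60 ± 0.19 and Stard4, a cytosolic sterol carrier, by -0.96 ± 0.38, both with no overlap. Nr0b1, which encodes the repressor DAX-1, differed by 0.59 ± 0.21 in the other direction, again with no overlap. The adjusted p values of these 3 were 0.255 to 0.318.

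In peripubertal against control ovaries, values were lower in 19 and higher in 16 of the 35, with a median of -0.025 beside 0.0078 over all genes. Unadjusted p was under 0.05 in 2, beside 11.4% of all genes. Akr1c18, the 20-alpha-hydroxysteroid dehydrogenase that inactivates progesterone and is high in regressing corpora lutea, read 11.01 and 11.32 in C1 and C2 and 14.10, 15.52 and 16.40 in P2, P3 and P4. The other ovaries of these groups have no value, and the difference of 4.20 ± 1.32 did not pass (limma, adjusted p = 0.309). Vdac2, an outer mitochondrial membrane channel, differed by -0.28 ± 0.11, Cyb5a, the cytochrome b5 that aids CYP17A1, by -0.70 ± 0.33, and Dbi, an acyl-CoA-binding protein, by -0.30 ± 0.16, with adjusted p of 0.381 to 0.524.

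In early-life against peripubertal ovaries, 20 of the 35 were lower and 15 higher, with a median of -0.13 beside -0.033 over all genes. Unadjusted p was under 0.05 in 8 of the 35, a share near the 24.0% of all genes. Nr5a1, which encodes steroidogenic factor 1, a transcription factor of steroid-making cells, read 14.09, 14.12 and 14.14 in E1, E2 and E4 and 14.64 to 15.00 in peripubertal ovaries. The groups stood apart with a difference of -0.67 ± 0.16 (limma, adjusted p = 0.0609). Vdac2 differed by 0.42 ± 0.11 (adjusted p = 0.0773), Akr1c18 by -4.11 ± 1.101 (adjusted p = 0.0939) and Npc1, which carries cholesterol out of late endosomes, by -0.33 ± 0.10 (adjusted p = 0.105).

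Steroidogenic factor 1 binds a half-site with the core AGGTCA, which was searched on both strands of the 250 bases before each start in the RefSeq promoter table (build GRCm38.p6). Among the members 7 genes with 8 starts were in that table, and 1 of the 8 windows held the core, against 14.0% of all 32851 windows. The longer form AAGGTCA, which contains the core, was in 0 of the 8 and in 4.08% of all windows. Star, Cyp17a1 and Tspo were not among the genes with a start there. Of the other motifs searched, AGATAA was in 2 of the 8 windows and in 9.99% of all windows. TATAAA was in 0 of the 8 and in 12.4% of all windows. The window with the core AGGTCA is that of the downstream Cyp11a1 start, shown as the only match, in capitals.
Cyp11a1, chr9:58014702-58014951, plus strand: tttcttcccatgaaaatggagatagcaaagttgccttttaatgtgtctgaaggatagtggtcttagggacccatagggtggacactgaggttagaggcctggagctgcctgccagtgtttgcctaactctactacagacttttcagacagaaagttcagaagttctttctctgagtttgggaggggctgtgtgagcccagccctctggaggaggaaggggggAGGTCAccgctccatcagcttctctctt
The match starts 28 bases before the annotated start. It is a match of letters and not a measured binding site, and none of these windows was tested for binding.

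Markers of other cells differed in level between the groups and are given beside the members. The ovary label fits its defining genes, since the granulosa markers Amh and Foxl2 and the oocyte markers Zp3 and Gdf9 were well above background in all 12 samples. Of the theca list, Gli1 and Ptch1 were measured beside the members Cyp11a1 and Cyp17a1, with 0 called. Gli1 differed by -0.83 ± 0.31 in early-life against control ovaries, with overlap, and Ptch1 by -0.16 ± 0.20. Against peripubertal ovaries Gli1 differed by -1.09 ± 0.31 without overlap (limma, adjusted p = 0.0822), as did 20.7% of all genes, and Ptch1 by -0.22 ± 0.20 with overlap. Markers of the oviduct, which adjoins the ovary, had a summed level of 3591 to 42641 intensity units over 4 genes in early-life, 984 to 7105 in control and 737 to 1678 in peripubertal ovaries. All 6 measured oviduct genes had higher early-life than control values, of which 0 were called. Against peripubertal ovaries all 6 were higher too. There 1, Wfdc2, was called, with a difference of 4.50 ± 1.01 (limma, adjusted p = 0.0483), beside 2.69% of all genes. E4, E1 and E3 were the highest ovaries, at 42641, 29951 and 15053, followed by C1 and C4 at 7105 and 6891. Fdxr read 15.81 and 15.78 in C1 and C4 and 14.67 to 14.99 in E1, E3 and E4. In E2, which at 3591 was the lowest of its group in oviduct markers, Fdxr read 15.54. In C2 and C3, at 1602 and 984, it read 15.72 and 16.04. In P1 to P4, at 888, 1678, 737 and 898, it read 16.42, 15.40, 16.07 and 15.39. P2 and P4 thus lay under C1, C4 and E2 in Fdxr, with lower oviduct sums.

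Fat cell markers summed over 4 genes to 19168 to 139972 in early-life, 2817 to 10636 in control and 4074 to 33930 in peripubertal ovaries. Adipoq, Cfd and Fabp4 had higher early-life than control values with no overlap and 0 calls, while Plin1 differed by -0.038 ± 0.51. The 6 macrophage markers summed to 5041 to 7124, 6184 to 13770 and 10609 to 15903 in the same order. All 6 had lower early-life than control means, with 0 called and with overlap in all but Cd68. Against peripubertal ovaries 4 of the 6 were called lower, beside 2.69% of all genes called in either direction. Luteal markers summed over 4 genes (Lhcgr, Prlr, Ptgfr and Parm1) to 18803 to 23370 in early-life, 13989 to 34946 in control and 19059 to 45659 in peripubertal ovaries. The extremes were C1 and P3, which were also the lowest control and the highest ovary in Cyp11a1. Ptgfr read 10.17 in C1 and 14.75 in P3, while Parm1 went the other way, with 13.08 and 11.78. Lhcgr was lowest in C1, but its 12.40 in P3 lay under C2, C4 and E2. Of the 6 genes listed for the adrenal cortex, another steroid-making tissue, Cyp11b2 was well above background in 0 and Mc2r in 1 of 12 samples, Cyp11b1 in 6, and Cyp21a1, Mrap and Akr1b7 in 12. Summed over 3 genes, they came to 498 to 977 in early-life, 766 to 2519 in control and 648 to 1395 in peripubertal ovaries. Every early-life ovary lay under every control in Akr1b7, an aldose reductase relative, with a difference of -2.01 ± 0.48 (limma, adjusted p = 0.201). Mrap, an accessory protein of the corticotropin receptor, had no value in C2. Its early-life values lay under those of the other controls, with -1.32 ± 0.43 (limma, adjusted p = 0.272). Groups did not overlap in 13.6% of all genes. Cyp11b1 differed by -1.18 ± 0.74 and Cyp21a1 by 0.31 ± 0.23, both with overlap. Of 6 pituitary hormone genes, Gh, Prl, Tshb and Cga were well above background in 0 of 12 samples, and Pomc and Lhb in 12. Pomc differed by -0.45 ± 0.13 between early-life and control ovaries, with no overlap (limma, adjusted p = 0.238), and Lhb by 0.22 ± 0.16. The part of theca, oviduct, fat, macrophage, luteal, adrenal and pituitary RNA in the values of the 10 genes was not tested.

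**Figure D4:**
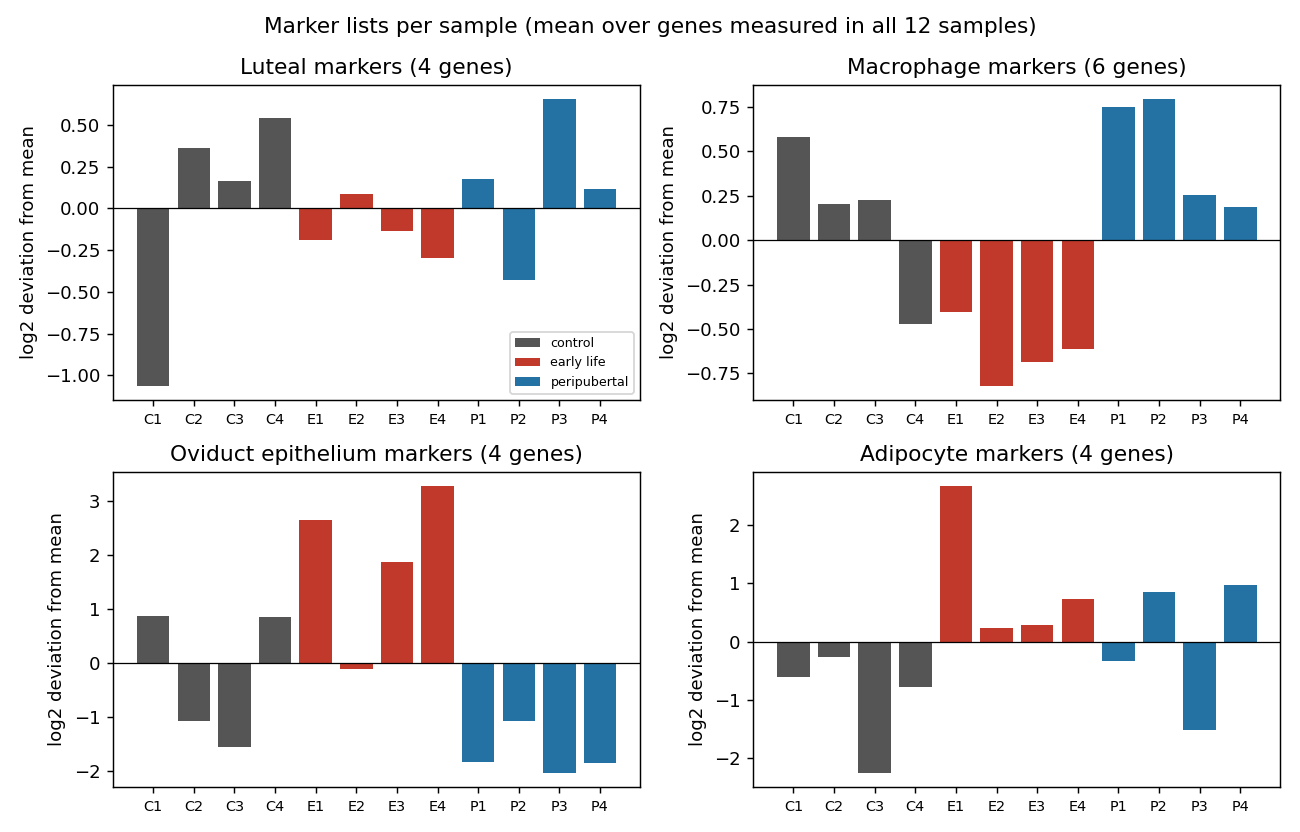
Mean log2 deviation from the mean over the 12 ovaries (vertical axis) of the luteal, macrophage, oviduct and fat cell markers with a value in every sample, 1 bar per ovary coloured by diet group. E1, E3 and E4 stand highest in the oviduct panel, all 4 early-life ovaries lie below 0 in the macrophage panel, and C1 is lowest and P3 highest in the luteal panel.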

How the data were processed

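Per the labels, RNA from minced ovaries was amplified with Cy3 or Cy5 incorporated. Per the file headers, Agilent Feature Extraction 11.0.1.1 produced the values of the 6 arrays, and probe positions refer to build mm9. The deposited scanner files hold each spot's signal and local background as intensity, without normalisation. The deposited value table holds log2 values whose making is not given in the sources used here. It served as an alternative and to check sample names, and its peripubertal columns matched no array. There Cyp11a1 read -2.09 (P1) and -2.25 (P3), without a value in P2 and P4, against 7.69 to 9.02 in the control and early-life columns. Star read -3.48 to -0.98 against 3.08 to 7.70. Hsd3b1, Hsd3b6, Fdx1 and Fdxr were likewise lower there without overlap, while Por, Tspo, Stard3 and Cyp17a1 overlapped. The reason was not tested. Unused columns of per-sample values numbered 0.

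From the mean signal and median background, values were computed with limma 3.58.1 in R 4.3.3: normexp (offset 50), loess within arrays, Aquantile between arrays, separate channels. Control and outlier spots were left out. A probe had to stand well above background in 4 or more of 12 samples and have 2 or more values a group; these were kept, 1 (the brightest) per gene. The model had diet group and dye, with array as a random block, and Benjamini-Hochberg adjustment over 18559 genes (threshold 0.05). It was tested on simulated data. P-values measure the spread between these 4 samples a group. Deviations of same-numbered samples had r over 0.1 in 3 of 12 pairs, all of control with early-life samples (C1 and E1 0.22, C2 and E2 0.54, C4 and E4 0.38; C3 and E3 0.071). As not every pair did, samples were not paired. Promoters are from RefSeq, build GRCm38.p6.

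All 10 members are named; of the pathway list, those called or otherwise the 4 with the smallest p in a comparison; and the 3 genes most like each member, of which 1 is not reported here. Members and lists were chosen with earlier results of these data known. Alternatives changed the background, normalisation, filters, probe rule, outlier spots, dye, blocks, sample names and single samples.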

Additional observations from a re-analysis of the deposited data

Results flagged for a closer look

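Cyp17a1 in control ovaries held the only value that stood apart from its group among the 52 groups of 4 samples examined. C2 read 14.61 on the log2 scale, where the nearest other control read 11.97, and the gap was 0.887 of the group's range, above Dixon's critical value for 4 samples. Chance alone sets apart about 1 group in 20. C2 carried Cy5, as did C4, which read 11.97.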

How the results depend on the processing

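Alternatives other than leaving out single samples gave 310 values of the members' differences. These included a fit of the 8 control and early-life samples alone. Of the 310 values, 305 kept their direction and side of the threshold, 2 reversed and 3 passed the threshold. The reversed ones were near 0: Fdx1 in peripubertal against control ovaries was -0.0014 with the scanner software's processed signals, and Fdxr was 3.9e-05 with quantile normalisation. Without the array block 3 members and 4 pathway genes were called between the deficient groups, beside 2099 of all 18559 genes. Without the dye term 1 pathway gene was called between them, beside 759 of all genes. With single samples left out, the range there was 0 to 3 members and 0 to 2 pathway genes, beside 2 to 1576 of all genes.

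Reversals on leaving out 1 sample gave ranges of -0.19 to 0.066 for Hsd3b1 in early-life against control ovaries. In peripubertal against control ovaries they were -0.17 to 0.30 for Fdx1, -0.21 to 0.12 for Fdxr, -0.26 to 0.0022 for Tspo and -0.14 to 0.036 for Stard3. Between the deficient groups they were -1.05 to 0.68 for Cyp17a1 and -0.21 to 0.15 for Por. Without reversing, Star ran from -2.62 to -1.49 in early-life against control ovaries and from -2.07 to -0.087 between the deficient groups, and Fdx1 there from -1.98 to -0.72.

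Genes called in early-life against control ovaries (0) numbered 5 without background subtraction, 21 with processed signals, 1 with outlier spots kept, 117 without the array block, 35 without the dye term, 4 in the deposited value table and 0 to 108 with single samples left out. For peripubertal against control (50) they were 21 without a filter on dim probes, 14 with all 12 samples well above background, 19 with probes averaged, 26 with outlier spots kept, 159 without the array block, 81 without the dye term and 0 to 29 with single samples left out. Between the deficient groups (500) they were 231 with processed signals, 302 with probes averaged, 2099 without the array block, 759 without the dye term and 2 to 1576 with single samples left out. With replicate number as a block in place of dye they were 0, 12 and 621, and no member was called. The cause of these shifts was not tested.

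With control and early-life arrays exchanged, 500 genes were called in peripubertal against control ovaries and 50 between the deficient groups, and members with a lower value numbered 2, 1 and 5 in the order above. The deposited table gave 2 in early-life against control ovaries. Its control and early-life columns match the same scanner channels under exchanged names, so this count is not a separate result. The samples' number, the spread of Star and Cyp17a1 and the values set aside as outlier spots limit the precision. The signal was at least 58.8 times the background.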
